A study of Mus musculus with 23 samples.

Results

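CTCF crosslink sites within exons of noncoding RNAs were examined in mouse E14 cells by iCLIP2, a method that maps single nucleotides of RNA crosslinked by UV light to an immunoprecipitated protein. A site was counted when it lay in a same-strand exon of a gene that GENCODE does not list as protein_coding, and in no exon of a same-strand protein-coding gene. This held for 19737 of the 1346716 sites on chromosomes 1 to 19, X and Y in the 6 site lists, and the sites fell in 1740 of 33475 annotated noncoding genes. CTCF is a zinc finger protein that binds DNA at chromatin loop anchors and also binds RNA, and the ΔZF1 form lacks part of its first zinc finger. Noncoding RNAs comprise small RNAs, which serve splicing (snRNAs such as U6), the modification of other RNAs (snoRNAs) or transcription control (7SK), and long RNAs, many of which stay in the nucleus. Pseudogenes are copies of other genes, and TEC is GENCODE's label for loci whose transcripts still await experimental support.

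All cells were embryonic stem cells (ESCs) of the line E14 CTCF-AID2 degron, in which endogenous CTCF is degraded, or neural progenitor cells (NPCs) differentiated from them for 2 days. Every culture received 1 µM 5-Ph-IAA to degrade endogenous CTCF and 1 µg/mL doxycycline to induce a Flag-tagged rescue CTCF, for 24 hours, and the Flag tag was used to recover CTCF from nuclear lysates. The groups were WT rescue (ESC WT, 4 libraries; NPC WT, 3 libraries), ΔZF1 rescue (ESC ΔZF1 and NPC ΔZF1, 4 libraries each) and WT rescue without UV (ESC noXL and NPC noXL, 4 libraries each). The other groups received 400 mJ/cm2 of UV at 254 nm. Each rescue line was 1 clone, the rescue gene was driven by a doxycycline-responsive promoter, and the ΔZF1 line had no group without UV. The libraries of each group were merged by the authors before sites were called, so each group has 1 list, the difference between replicates is not known, and no comparison below carries a test. Intervals are 95% Wilson intervals that cover counting error only, and the read depth behind each list is unknown. Site counts depend on the level of each RNA as well as on its binding, fewer cells of a type cannot be told apart from less RNA per cell, and RNA levels were not analysed here. As a check of the labels, sites in the bodies of the stem cell genes Esrrb and Tfcp2l1 numbered 460 and 343 in the ESC WT list but 0 and 5 in the NPC WT list, whereas the progenitor gene Nes had 2 and 28. The neural genes Zic1, Hes5, Pax6 and Sox1 had 0 sites in either list.

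The sequences below show where these sites fall on RNAs that the results turn on, read 5′ to 3′ from the mm10 (GRCm38) genome as DNA letters, with T for uridine. The U2 sequence is from Gm23849 at chr11:101627366-101627556, plus strand (4 of 14 copies of 191 nt), with capitals where 5 or more sites fell over all copies and the 4 UV lists. The other windows are 41 nt long and centred on the highest-scoring site of the gene in the list named, which is in capitals. Where several sites shared the highest score, as in 7SK, the one with the lowest coordinate is shown. The U2 sequence shows positions that recurred over copies, all 7 of them uridines, and the windows show the surroundings of the strongest site in genes described further on.
U2 snRNA, 191 nt: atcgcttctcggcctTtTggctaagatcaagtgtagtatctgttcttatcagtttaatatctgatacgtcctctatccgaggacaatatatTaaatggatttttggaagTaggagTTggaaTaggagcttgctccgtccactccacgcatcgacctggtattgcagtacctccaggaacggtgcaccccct
Rn7sk (7SK), ESC WT, chr9:78175330-78175370, minus strand: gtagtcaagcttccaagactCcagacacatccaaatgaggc
Rn7sk (7SK), NPC WT, chr9:78175420-78175460, minus strand: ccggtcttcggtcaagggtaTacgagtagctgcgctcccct
Malat1, ESC WT, chr19:5797735-5797775, minus strand: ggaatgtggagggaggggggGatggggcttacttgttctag
Malat1, NPC WT, chr19:5796220-5796260, minus strand: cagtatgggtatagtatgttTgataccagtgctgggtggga
Gas5, ESC WT and NPC WT, chr1:161038060-161038100, plus strand: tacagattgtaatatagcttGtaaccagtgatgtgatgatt
Snhg17, ESC WT, chr2:158359911-158359951, minus strand: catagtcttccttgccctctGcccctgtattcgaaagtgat
Snhg17, NPC WT, chr2:158356536-158356576, minus strand: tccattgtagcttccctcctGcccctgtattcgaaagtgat
Tug1, ESC WT and NPC WT, chr11:3649003-3649043, minus strand: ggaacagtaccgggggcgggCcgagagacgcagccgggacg
Firre, NPC WT, chrX:50608778-50608818, minus strand: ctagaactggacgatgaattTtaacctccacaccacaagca
Kcnq1ot1, NPC WT, chr7:143296279-143296319, minus strand: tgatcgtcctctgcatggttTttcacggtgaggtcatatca

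Noncoding exons held a similar small share of every list. In ESCs there were 6578 such sites of 451137 with WT (1.46%, interval 1.42 to 1.49), 3672 of 231636 with ΔZF1 (1.59%, 1.54 to 1.64) and 1906 of 158968 without UV (1.20%, 1.15 to 1.25). In NPCs the counts were 3807 of 239258 with WT (1.59%, 1.54 to 1.64), 2374 of 158490 in ΔZF1 (1.50%, 1.44 to 1.56) and 1400 of 107227 in noXL (1.31%, 1.24 to 1.38). Both noXL lists had the lowest share within their cell type. Between 25.1% and 38.5% of the sites also lay inside the body of a same-strand protein-coding gene, in an intron of it, so that pre-mRNA and noncoding RNA could not be separated there. Sites were spread thinly, since the 10 genes with most sites in a list held 13.2% to 20.9% of them.

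WT lists held more sites in noncoding exons than ΔZF1 lists, close to the difference between the whole lists. In ESCs the WT to ΔZF1 ratio of site counts was 1.79 (interval 1.72 to 1.87), beside 1.95 for all sites and 1.93 for protein-coding exons. In NPCs it was 1.60 (1.52 to 1.69), beside 1.51 for all sites and 1.82 for protein-coding exons. Against noXL the WT ratio was 3.45 in ESCs (3.28 to 3.63) and 2.72 in NPCs (2.56 to 2.89), beside 2.84 and 2.23 for all sites and 3.16 and 2.88 for protein-coding exons. The classes of noncoding gene lay apart in NPCs. Their WT to ΔZF1 ratio was 2.26 for small RNAs (2.00 to 2.54), 2.09 for pseudogenes, 1.52 for long noncoding RNAs and 1.01 for TEC loci.

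Long noncoding RNAs were the largest class in every list, with 2929 WT sites in ESCs and 1767 in NPCs. Small RNAs held 1301, 738 and 271 sites with WT, ΔZF1 and noXL in ESCs and 887, 393 and 222 in NPCs. The WT to noXL ratio was 4.80 for small RNAs in ESCs (4.21 to 5.47) and 4.00 in NPCs (3.45 to 4.63), above the 2.93 and 2.53 of long noncoding RNAs. The small RNA types differed in this. For snRNAs the ratios were 10.1 (7.53 to 13.4) and 10.8 (7.37 to 15.9). For miRNA genes they were 2.32 in ESCs (160 and 69 sites, 1.75 to 3.07) and 1.957 in NPCs (135 and 69 sites, 1.47 to 2.61). Both miRNA intervals included the ratios of all sites, 2.84 and 2.23. In NPCs the ΔZF1 list held 63 miRNA gene sites, 0.913 of the noXL number (0.650 to 1.28). Pseudogenes, most of them processed copies of mRNAs, had 1262 WT sites in ESCs and 636 in NPCs, with WT to noXL ratios of 5.13 (4.48 to 5.88) and 7.40 (5.91 to 9.26). Reads of a parent mRNA and of its copy cannot be told apart here, since the treatment of reads with several matches is not given in the sources used here, so all pseudogene counts and ratios are uncertain. In TEC loci the WT to noXL ratio was 2.80 in ESCs (2.49 to 3.14) and 1.31 in NPCs (1.15 to 1.50). The WT and ΔZF1 lists of NPCs held 517 and 511 TEC sites, a ratio of 1.01 (0.895 to 1.14). Between 83.6% and 89.1% of TEC sites lay inside a protein-coding gene, where pre-mRNA and noncoding RNA could not be separated.

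**Figure D1:**
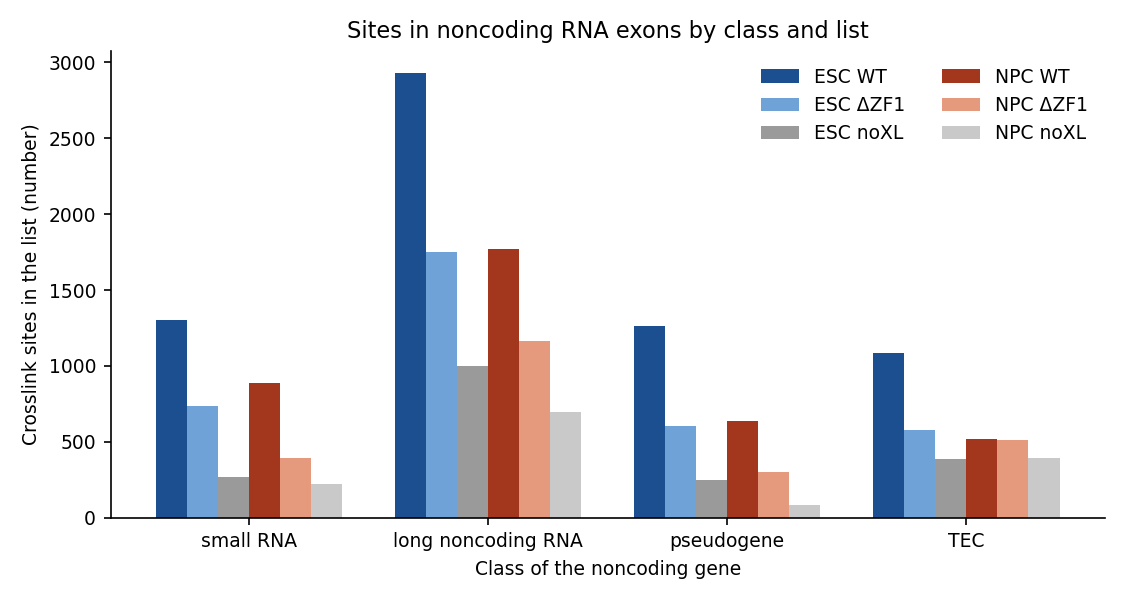
Bars give the number of crosslink sites in noncoding RNA exons (vertical axis) for 4 classes of noncoding gene (horizontal axis), 1 bar for each of the 6 lists. Long noncoding RNA bars are the tallest in every list, from 2929 in ESC WT to 698 in NPC noXL, and the NPC WT and NPC ΔZF1 bars of TEC are nearly level at 517 and 511.

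Sites fell on uridine, the base that UV light crosslinks most readily, more often in each of the 4 UV lists than in either noXL list. The uridine share of noncoding exon sites in ESCs was 57.3% for WT (56.1 to 58.5), 49.4% for ΔZF1 (47.8 to 51.0) and 28.2% for noXL (26.3 to 30.3). In NPCs it was 61.4% for WT (59.9 to 62.9), 58.4% for ΔZF1 (56.4 to 60.4) and 27.6% for noXL (25.4 to 30.0). The intervals of WT and ΔZF1 lay apart in ESCs and met in NPCs. Protein-coding exons gave 59.8%, 48.2%, 26.02%, 64.8%, 57.9% and 25.3% in the same order of lists. The base before the site was uridine in 45.4% of ESC WT and 48.7% of NPC WT sites, against 26.5% and 26.3% in the noXL lists. A run of 4 uridines began and ended within 5 nt of 13.8% of the sites of ESC WT and 5.35% of those of ESC noXL. That run was present at 22.6% of TEC sites and 5.92% of small RNA sites in ESC WT, so the classes differed in sequence around the site.

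Counted on uridine alone, the WT to noXL ratios were higher than over all bases, as the uridine shares imply. The whole lists had similar shares, 59.9% in ESC WT and 63.9% in NPC WT against 28.3% and 27.9% in the noXL lists, so this is not particular to noncoding exons. There were 3770 uridine sites in ESC WT and 538 in ESC noXL, a ratio of 7.01 (6.40 to 7.67), and 2338 and 387 in NPCs, a ratio of 6.04 (5.43 to 6.73). For uridines of small RNAs the ratios were 12.3 (9.39 to 16.0) and 8.62 (6.62 to 11.2). For uridines of pseudogenes they were 9.12 (7.17 to 11.6) and 17.7 (11.4 to 27.3). ESC ΔZF1 held 1815 uridine sites, 3.37 times the ESC noXL number (3.06 to 3.71), and NPC ΔZF1 1386, 3.58 times that of NPC noXL (3.20 to 4.01).

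**Figure D2:**
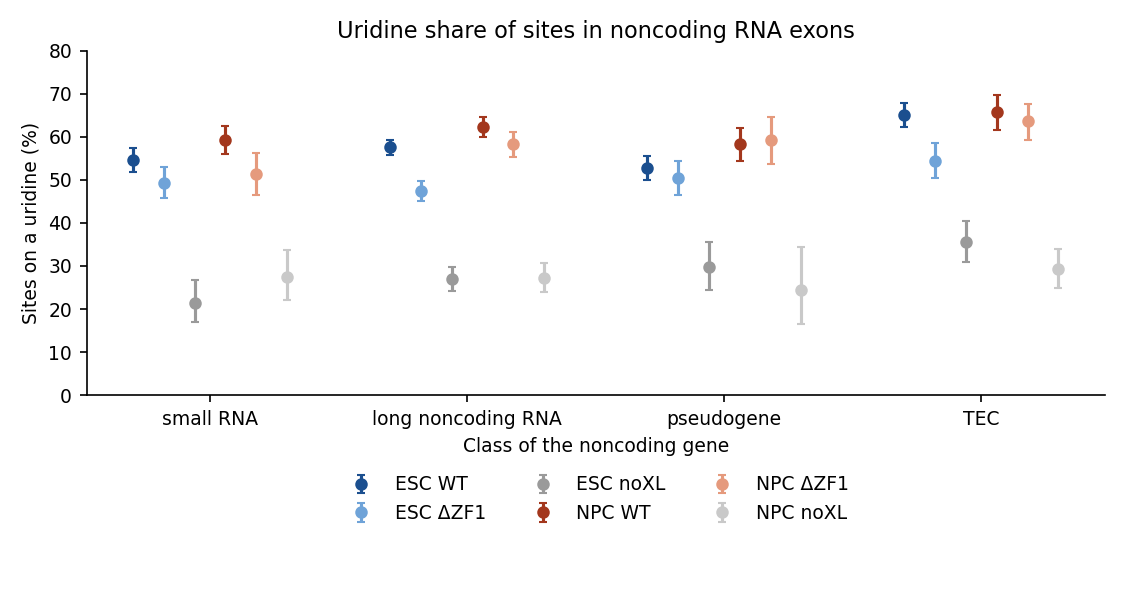
Points give the percentage of sites on a uridine (vertical axis) for 4 classes of noncoding gene (horizontal axis) in each of the 6 lists, and bars are 95% Wilson intervals. In every class both noXL lists lie below all 4 UV lists, the highest noXL value being 35.6% (TEC, ESC) and the lowest UV value 47.4% (long noncoding RNA, ESC ΔZF1).

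Spliceosomal snRNAs, the RNA parts of the splicing machinery, held 503, 283 and 50 sites with WT, ΔZF1 and noXL in ESCs and 303, 136 and 28 in NPCs. The WT to noXL ratio was 10.1 in ESCs (7.53 to 13.4) and 10.8 in NPCs (7.37 to 15.9). Their uridine share was 65.4% in ESC WT and 71.0% in NPC WT, against 18.0% and 14.3% in the noXL lists. Most snRNA sites lay in copies of U6, which pairs with the 5′ splice site: 398 sites in 146 of 697 matched copies in ESC WT, 231 in 111 copies in NPC WT, and 42 and 21 sites in the noXL lists. Where copies are alike in sequence, reads may have been divided among them, so the number of copies with a site is uncertain. The 398 sites of ESC WT stood in 312 different 41-nt windows.

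7SK, the RNA that holds the elongation factor P-TEFb inactive, is encoded by Rn7sk at chr9:78175303-78175633 on the minus strand. Its 331 nt carried 41 WT and 31 ΔZF1 sites in ESCs and 3 WT sites in NPCs, and 0 in each of the 3 remaining lists. Sites were therefore listed in both UV lists of ESCs and nearly absent from NPCs. Per kb of exon this was 124 WT and 93.7 ΔZF1 sites in ESCs, and 30 of the 31 ESC ΔZF1 sites lay within 5 nt of an ESC WT site. At that density of WT sites much of 7SK lies within 5 nt of one, so this overlap cannot show that positions recurred. ESC WT had at least 4.80-fold more sites than ESC noXL after scaling to the genic sites of each list, with 3 sites as the floor of the empty list. Only 16 of the 41 sites in ESC WT and 13 of the 31 in ESC ΔZF1 were on uridine. The PureCLIP score stops at 708 (the highest value in all 6 lists), and 7SK held 25 of the 52 noncoding exon sites at that value in ESC WT and 21 of 48 in ESC ΔZF1. U2, which pairs with the branch point, held another 9 in each list.

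Terc, the RNA template of telomerase, had 11, 4 and 1 sites with WT, ΔZF1 and noXL in ESCs and 10, 2 and 3 in NPCs. The other listed RNAs of small ribonucleoproteins had 5 or fewer sites in every list, with none at all in 3 of the 9 genes. 5S ribosomal RNA copies carried 38 sites in ESC WT, 28 in NPC WT, 1 in ESC noXL and 5 in NPC noXL. The rRNA gene type had the lowest uridine share of the 6 small RNA types with most sites in ESC WT, 25.0% (18.4 to 33.0), against 22.6% in ESC noXL (11.4 to 39.8), and those intervals overlapped. This type is not 5S alone. Of its 132 ESC WT sites 66 were in CT010467.1, a ribosomal RNA sequence of 2466 nt, where 15.2% were on uridine. In 5S copies 36.8% of ESC WT sites were on uridine.

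SnoRNAs divided by family. H/ACA box snoRNAs, which guide pseudouridylation, held 160, 48 and 16 sites with WT, ΔZF1 and noXL in ESCs and 95, 37 and 20 in NPCs, and 78.1% and 82.1% of the WT sites were on uridine. C/D box snoRNAs, which guide 2′-O-methylation, held 135, 89, 63, 114, 53 and 56 sites in the same order, and 42.2% and 46.5% of the WT sites were on uridine. The noXL lists thus came closer to WT in the C/D box family, whose median score was 103 in ESC WT and 151 in ESC noXL, than in the H/ACA family, with 10.6 and 3.44.

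A further set of sites stood 1 nt before the annotated 5′ end of a small RNA gene, in similar number with and without UV. There were 302, 297 and 262 with WT, ΔZF1 and noXL in ESCs and 267, 220 and 215 in NPCs. In iCLIP2 data a site is the position before the first base of a read, so a read that starts at the 5′ end of the RNA is listed there. Most of these positions lie outside the exon and were not counted above, but the ones inside a host gene's exon were. The highest-scoring Gas5 site lay 2 nt before Snord47 and both Snhg17 sites shown lay 2 nt before a small RNA gene, with 23 identical bases at the 3′ end of their windows. All 3 positions had a site within 5 nt in all 6 lists. Of the long noncoding RNA sites in the top 10% of scores, 12.6% in ESC WT, 19.4% in NPC WT, 25.0% in ESC noXL and 22.4% in NPC noXL lay 1 to 3 nt before a small RNA gene.

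Scores of noncoding exon sites were high for their lists. The median score was 4.11, 3.80 and 5.64 with WT, ΔZF1 and noXL in ESCs and 3.95, 4.81 and 4.61 in NPCs, beside 2.55, 2.72, 4.43, 2.41, 3.93 and 3.82 over all sites. Between 19.04% and 25.6% of them were in the top 10% of scores of their list, against 7.46% to 10.6% of sites in protein-coding exons. Small RNA sites were the highest, with 53.7% to 69.8% of sites in the top 10% and median scores of 13.1 to 31.4, whereas TEC sites had 5.03% to 12.4%. The score is not scaled to depth, and the noXL lists were high as well.

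Among single genes, Kcnq1ot1 had most sites. It is the antisense RNA that silences the Kcnq1 imprinted cluster on the paternal chromosome, and its single exon spans chr7:143203458-143296549 on the minus strand. It held 198, 166 and 49 sites with WT, ΔZF1 and noXL in ESCs and 205, 222 and 90 in NPCs, of which 111, 85, 15, 117, 127 and 22 were on uridine. Per kb of exon it was the least dense of the 10 genes with most sites in ESC WT, at 2.13 sites. Its sites seldom recurred: 18 of the 205 in NPC WT lay within 5 nt of an ESC WT site, and 14 of the 166 in ESC ΔZF1. The log2 ratio of ΔZF1 to WT sites, with 1 site added to each count and scaled to the sites of each list that lay in a gene on its strand, was 0.73 in ESCs (0.43 to 1.02) and 0.70 in NPCs (0.43 to 0.98), below the limit of 1 used for calls. Without scaling it was -0.25 in ESCs and 0.11 in NPCs, so its sign in ESCs rests on the scaling.

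Malat1, an RNA of nuclear speckles, and Neat1, of paraspeckles, both had fewer sites with ΔZF1 than with WT in both cell types. Malat1 (chr19:5795690-5802672, minus strand) carried 41, 8 and 7 sites with WT, ΔZF1 and noXL in ESCs and 41, 5 and 5 in NPCs. On uridine there were 27, 0, 0, 27, 2 and 0. The ΔZF1 lists were at the level of noXL, and all 8 ESC ΔZF1 sites and 3 of the 5 NPC ΔZF1 sites had a neighbour in their own noXL list within 5 nt. On the scaled log2 scale ΔZF1 to WT was -1.24 in ESCs (-2.45 to -0.31) and -2.22 in NPCs (-3.74 to -1.15). Neat1 (chr19:5824708-5845478, minus strand) carried 85, 28, 33, 28, 9 and 8 sites in the same order of lists, with scaled log2 ratios of -0.59 in ESCs (-1.24 to -0.01) and -0.95 in NPCs (-2.11 to 0.01). Its ΔZF1 counts were also near those of noXL, and both intervals overlapped those of Malat1. Without scaling the log2 ratios of Neat1 were -1.57 and -1.54, so its side of the limit of -1 rested on the scaling. Its 28 ESC ΔZF1 sites included 16 on uridine and 10 within 5 nt of an ESC WT site. Tug1, a long noncoding RNA of nucleus and cytoplasm, had 98, 52, 44, 54, 28 and 20 sites, and the interval of its ΔZF1 to WT ratio included 0 in both cell types (-0.42 to 0.55 and -1.01 to 0.29). Its highest-scoring site, on cytidine, was the same position in ESC WT and NPC WT and also had a site within 5 nt in both noXL lists.

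**Figure D3:**
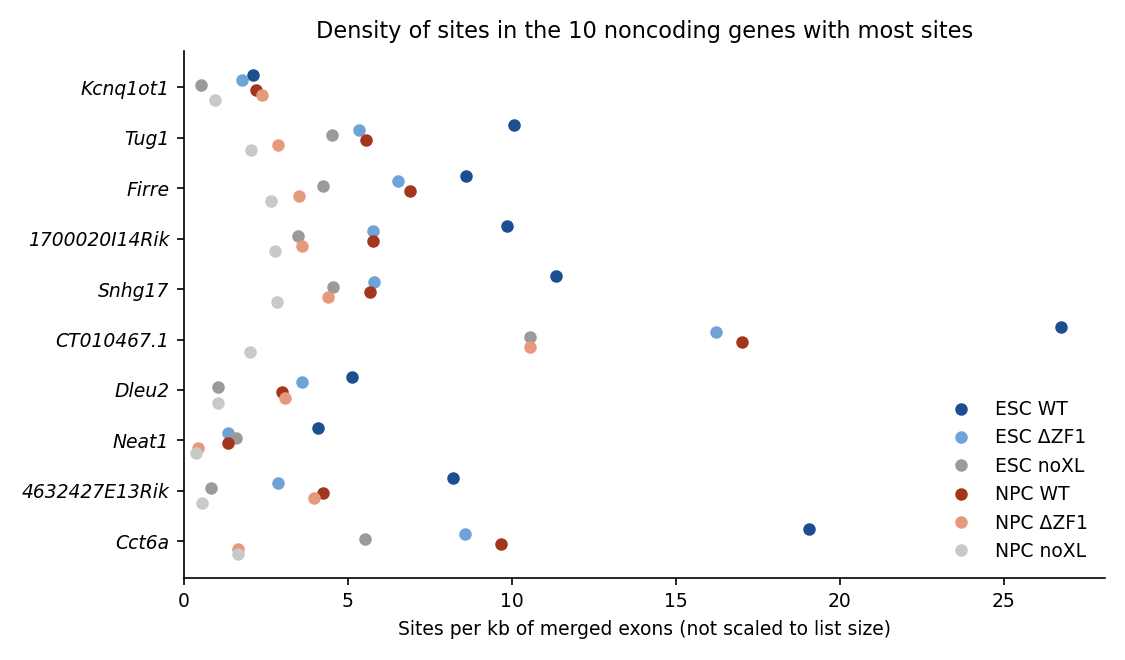
Points give the sites per kb of merged exons (horizontal axis, not scaled to the size of the list) for the 10 noncoding genes with most sites over the UV lists (vertical axis), coloured by list. ESC WT is the highest point in 9 of the genes, up to 26.8 sites per kb in CT010467.1, while in Kcnq1ot1 all 4 UV lists lie between 1.78 and 2.38.

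In ESCs 110 noncoding genes had at least 20 sites in the ΔZF1 and WT lists together, and 1150 with a site did not reach that number. A scaled log2 ratio of 1 or more was reached by 7 of the 110, beside 5.99% of all genes tested, and -1 or less by 3, beside 5.72%. The share above the limit was thus near the background. The median was 0.18, beside 0.02 over all genes. The lower genes were Malat1, Snhg5 (8 sites in ΔZF1, 35 in WT), a snoRNA host, and Gm32885 (3 and 18). The higher genes included Gm21781 (15 and 7), Rab10os (23 and 12) and 5430416N02Rik (28 and 25). The scaling alone is worth -0.98 on the log2 scale here. Without it 1 gene was above and 40 were below the limits, so the split of calls rests on the scaling. On uridines alone Malat1 had 0 sites with ΔZF1 and 27 with WT, while the scaled log2 ratio was -0.48 for Snhg5 and -0.89 for Gm32885, and the interval of Gm32885 over all bases reached 0.06.

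In NPCs 51 noncoding genes were tested and 1112 did not reach the minimum. Of the 51, 2 were at or above 1, beside 1.92% of all genes, and 5 at or below -1, beside 10.9%. The medians were -0.08 and -0.23. The 5 lower genes were H19, Malat1, the chaperonin gene Cct6a (listed as processed_transcript in the annotation; 6 sites in ΔZF1 and 35 in WT, log2 ratio -1.78, -3.17 to -0.74), the snoRNA host Zfas1 (8 and 33) and 1110038B12Rik (4 and 16). The higher genes were Atp10d (19 and 13) and B930086L07Rik (16 and 10). Without scaling, which is worth -0.59, 0 genes were above and 16 below. Cct6a in ESCs gave 31 and 69 sites and a log2 ratio of -0.15 (-0.78 to 0.43), and the difference between the cell types was not tested.

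**Figure D4:**
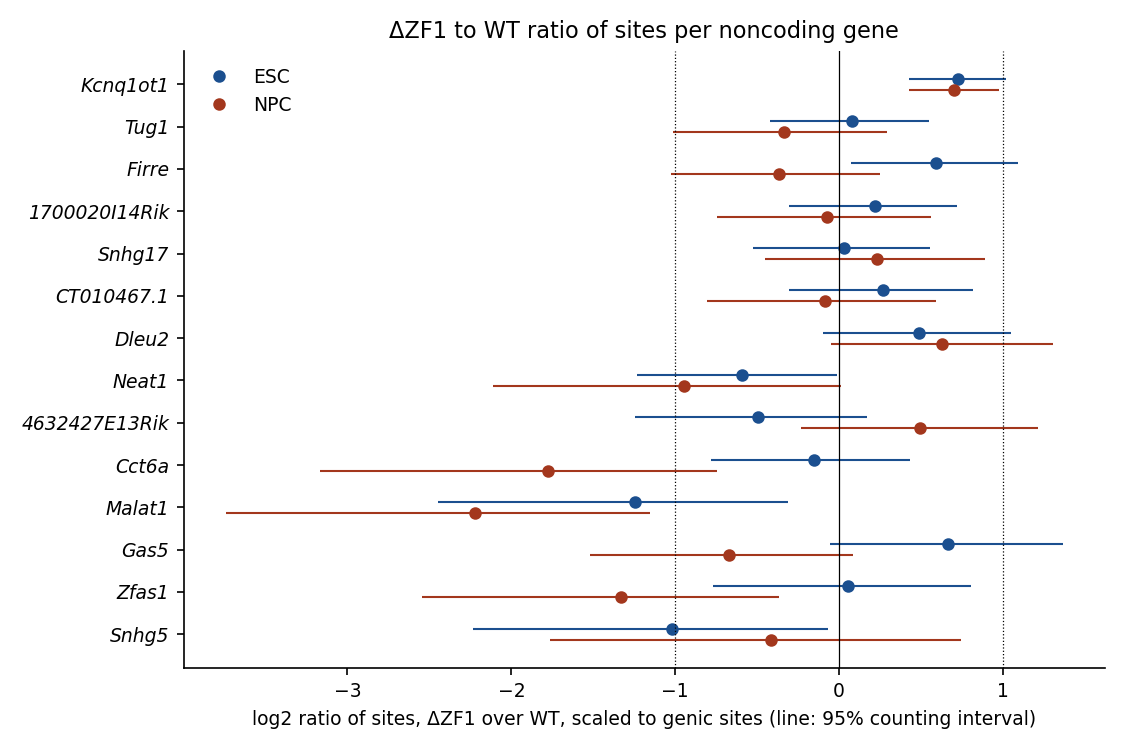
Points give the scaled log2 ratio of sites in ΔZF1 to WT (horizontal axis) in ESCs and NPCs for the 10 noncoding genes with most sites and for 4 further named genes (vertical axis), lines are 95% counting intervals, and dotted lines mark the limits of -1 and 1. Malat1 lies below -1 in both cell types, and Kcnq1ot1 at 0.73 and 0.70.

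Between NPC WT and ESC WT 105 noncoding genes were tested, of which 9 were at or above 1, beside 9.64% of all genes, and 14 at or below -1, beside 7.48%. The median was 0.05, against 0.11 over all genes, and 1199 genes with a site did not reach the minimum. Without the scaling of -0.90 the split was 5 and 44. Of the 9 listed imprinted RNAs 4 were at or above 1 (H19, Meg3, Mirg and Nespas) and none at or below -1. Without scaling Meg3 and Nespas, at 0.81 and 0.26, were within the limits. Kcnq1ot1 (205 sites in NPCs, 198 in ESCs, log2 ratio 0.95) and Snhg14 (17 and 40, -0.29) lay within the limits, and Rian, Peg13 and Airn had 2 or fewer sites in these lists. H19, the maternally expressed RNA beside Igf2 (chr7:142575529-142578143, minus strand), held 28 sites in NPC WT, 5 in NPC noXL, and 0 in NPC ΔZF1 and in all ESC lists. It was at least 17.4-fold higher in NPC WT than in ESC WT and at least 6.21-fold lower in NPC ΔZF1 than in NPC WT, with the floor of 3 sites and scaling. Meg3, B830012L14Rik and Mirg, maternally expressed RNAs or neighbours of the Dlk1-Dio3 cluster on chromosome 12, held 13, 24 and 47 sites in NPC WT and 7, 0 and 13 in ESC WT. In the noXL lists B830012L14Rik had 0 sites in ESCs and 13 in NPCs and Mirg had 7 and 29, so for these genes the lists without UV differed in the same direction, while Meg3 had 2 and 2. Nespas, antisense to Gnas, had 29 and 24 sites in NPC WT and ESC WT.

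Ftx, a noncoding gene of the X inactivation centre, held 43 WT sites in NPCs against 10 in ESCs (log2 ratio 2.90, 2.03 to 3.98), with 38 and 1 in the ΔZF1 lists and 16 and 6 in the noXL lists. Tsix, the antisense RNA of Xist, held 59 WT sites in ESCs and 22 in NPCs, Xist itself had 0 sites in all 6 lists, and Firre, an X-linked RNA that tethers chromatin in the nucleus, held 71 and 57. Of the lower genes Gm53, a lincRNA between Hoxb13 and Hoxb9, had 42, 33 and 23 sites with WT, ΔZF1 and noXL in ESCs and 0 in all NPC lists. Platr4 (27 and 2) and Rn7sk (41 and 3) were also lower in NPC WT. The listed stem cell RNAs, such as Lncenc1 and the Platr genes, had 98, 56 and 27 sites with WT, ΔZF1 and noXL in ESCs and 25, 11 and 8 in NPCs. The 6 listed neural RNAs, Rmst and Sox2ot among them, had 0 sites in all 6 lists, after 2 days of differentiation.

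Against noXL 88 noncoding genes were tested in ESC WT, of which 9 were at or above 1, beside 12.4% of all genes, and 3 at or below -1, beside 3.42%. In NPC WT 41 were tested, of which 8 were at or above 1, beside 16.9%, and 3 at or below -1, beside 2.33%. The medians were -0.03 and 0.16, against 0.17 and 0.29 over all genes. The scaling is worth 1.51 and 1.17 here, and without it 70 and 32 genes were above and 0 and 1 below. The 9 higher genes in ESCs were Rn7sk, Gm15459 (22 sites in WT, 0 in noXL), Ptpmt1 (26 and 1), Snhg20 (36 and 3), Snhg5 (35 and 3), 4632427E13Rik (60 and 6), A930004J17Rik (48 and 5), Lncenc1 (31 and 4) and 2900097C17Rik (29 and 4). The 8 in NPCs were AY036118, CT010467.1 (42 and 5), Malat1 (41 and 5), 4632427E13Rik (31 and 4), Cct6a (35 and 6), Nespas (29 and 5), Gm10033 (24 and 4) and H19 (28 and 5). CT010467.1 is a ribosomal RNA sequence with 9 of its 42 NPC WT sites on uridine, and on uridines alone its log2 ratio was -0.062 in place of 1.67. The lower genes were Nespas, Gm17491 and Gm44187 in ESCs and A930004J17Rik (13 and 14), Gm43481 and Gm42664 in NPCs, so A930004J17Rik and Nespas were past opposite limits in the 2 cell types, a difference that was not tested. Without scaling the ESC log2 ratios of Nespas, Gm17491 and Gm44187 were above 0, at 0.47, 0.49 and 0.32. The NPC log2 ratio of A930004J17Rik was -1.27 with scaling and -0.10 without, so its call in NPCs rests on the scaling too. AY036118, which overlaps CT010467.1, had 23 sites in NPC WT and 0 in NPC noXL, and such shared sites were counted for both genes.

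The snoRNA hosts, whose introns release snoRNAs, differed in how many of their sites lay near a noXL site. Exons of a host were merged over all its transcripts and can hold snoRNA sequence, and sites there were counted for the host too. The 15 annotated hosts had 385, 187 and 146 sites with WT, ΔZF1 and noXL in ESCs and 247, 116 and 99 in NPCs, and each had a site in at least 1 list. In Gas5 31 of 35 ESC WT sites lay within 5 nt of an ESC noXL site, and in Snhg1 27 of 38, followed by 13 of 26 in Snhg12 and 16 of 37 in Zfas1. In the hosts Snhg3, Snhg17, Snhg5 and Snhg20 this held for 4 of 21, 15 of 80, 6 of 35 and 0 of 36 sites, beside 14.0% of all noncoding exon sites of ESC WT. Gas5 held 35, 28 and 22 sites with WT, ΔZF1 and noXL in ESCs and 42, 17 and 19 in NPCs, and only 13 of its ESC WT sites were on uridine.

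Small RNA sites had the highest share with a neighbour in another list. Of the ESC ΔZF1 sites in noncoding exons 41.8% (40.2 to 43.4) lay within 5 nt of an ESC WT site, and in NPCs 25.9% (24.2 to 27.7), against 4.19% and 2.40% when sites were shifted by 500 or 1000 nt. Shifts of that size leave most small RNA genes, so overlap due to density within a short RNA was not measured. For small RNAs the shares were 78.9% and 71.8%, for pseudogenes 62.0% and 38.5%, for long noncoding RNAs 27.9% and 15.9% and for TEC loci 15.5% and 6.26%. Protein-coding exons gave 28.4% and 18.0%. Small RNAs also had the highest share without UV, where 54.1% of their NPC noXL sites had a neighbour in ESC noXL, beside 16.3% for pseudogenes, 15.8% for long noncoding RNAs, 3.30% for TEC loci and 18.4% over all 1400 sites. Of the NPC WT sites 41.4% (39.9 to 43.0) had a neighbour in ESC WT. Nearness to a noXL site was found for 14.0% of ESC WT and 13.2% of NPC WT sites, and for 24.2% and 28.3% of those in small RNAs. Of the 6578 ESC WT sites 688 (10.5%) had a neighbour in all 3 other UV lists, and 375 of these were in small RNAs. A further limit to those without a noXL neighbour in either cell type left 264, of which 140 were in small RNAs, 99 in pseudogenes, 19 in long noncoding RNAs and 6 in TEC loci.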

How the data were processed

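Crosslink site lists of 23 libraries in 6 groups were used. The authors used Flexbar for demultiplexing and trimming, STAR for alignment to mm10 and UMI-tools to collapse duplicates, took the base before each read start with bedtools, merged the libraries of a group and called sites with PureCLIP. Versions and the treatment of reads that map to several places are not given in the sources used here. The deposited score of each site is the authors' PureCLIP score and was ranked only within a list. Molecular identifiers were collapsed by the authors, so sites do not count PCR copies, but intervals cover counting error only.

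Sites were assigned on their strand to GENCODE M21 exons (Python 3.11.15, pandas 2.3.3, numpy 2.4.6, pysam 0.24.0, samtools 1.23.1, matplotlib 3.10.9). A site in several classes was given to small RNA, long noncoding RNA, pseudogene or TEC, in that order. Gene ratios used a pseudocount of 1, a minimum of 20 sites in both lists together and limits of 1 and -1 (log2), and the calculation was tested on simulated data. Small RNA families came from RefSeq names at an overlap of 80%, which matched 370 of 630 small RNA genes with a site, so family counts are incomplete. Members and gene lists were chosen with earlier results of these data known. Named genes were the 10 with most sites, the 3 highest and 3 lowest ratios among genes with 50 or more sites, and listed genes with 20 or more. Other genes past a limit were named after their values were seen. Site positions within a small RNA family are shown for U2 only, and those of other families are not reported here.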

Additional observations from a re-analysis of the deposited data

Results flagged for a closer look

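Gas5 had opposite signs in the 2 cell types after scaling to genic sites, and the same sign without it. Its scaled log2 ratio of ΔZF1 to WT sites was 0.67 in ESCs (-0.05 to 1.37) and -0.67 in NPCs (-1.52 to 0.08), a gap of 1.34, and this difference was not tested. Opposite signs after scaling were found for 6 of the 10 genes compared in both cell types. Both intervals included 0. Without scaling the log2 ratios were -0.31 (28 and 35 sites) and -1.26 (17 and 42 sites), so ΔZF1 had fewer sites in both cell types.

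Mitochondrial sites, which were in no comparison above, made up 0.0513% of all sites in NPC WT (123 of 239627, interval 0.0430 to 0.0612), above the 0.0214% of NPC noXL (23 of 107343, 0.0143 to 0.0322). The share was 0.00820% in NPC ΔZF1, and 0.0378%, 0.0310% and 0.0333% in ESC WT, ESC ΔZF1 and ESC noXL.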

How the results depend on the processing

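No paired analysis was possible because every list pools the libraries of its group, which likewise prevents leaving out single libraries. Depth, RNA level and the spread between libraries are unknown. In the order ESC WT, ESC ΔZF1, ESC noXL, NPC WT, NPC ΔZF1 and NPC noXL, the share of sites in noncoding exons was 1.84%, 1.92%, 1.29%, 2.02%, 1.60% and 1.44% with a score minimum of 3.02, the median over all lists, and 1.05%, 1.19%, 0.844%, 1.17%, 1.04% and 0.803% without sites inside coding genes. Merged within 8 nt it was 1.30%, 1.44%, 1.14% and 1.47% in the first 4 lists. Without sites inside coding genes the uridine share of ESC WT was 55.5%. The WT to ΔZF1 ratio was 2.08 in ESCs on uridines, and in NPCs 1.40 with the score minimum and 1.70 outside coding genes. The WT to noXL ratio was 2.85 and 2.34 with the score minimum, 7.01 and 6.04 on uridines, and 3.25 in NPCs outside coding genes.

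Counts of genes past the limits, higher and lower, were as follows. Without scaling they were 1 and 40 (ESC ΔZF1 to WT), 0 and 16 (NPC ΔZF1 to WT), 5 and 44 (NPC to ESC), 70 and 0 (ESC WT to noXL) and 32 and 1 (NPC WT to noXL). With at least 50 sites they were 1 and 0, 0 and 0, 4 and 1, 2 and 0, and 0 and 0. On uridines 1 gene was lower in the first comparison, and the others gave 1 and 3, 4 and 7, 4 and 5, and 5 and 1. Without scaling the ESC WT to noXL log2 ratios of Gm44187, Nespas and Gm17491 turned to 0.32, 0.47 and 0.49, and on uridines that of CT010467.1 in NPCs to -0.062. Over all alternatives 82 of the shares, ratios and counts over many sites or genes moved and 60 did not. Of the values of single genes past a limit 231 kept their direction within their interval, 63 of them under the smaller pseudocount, while 16 moved and 4 turned. Genes within the limits were not in this tally, such as Kcnq1ot1 in ESCs, whose log2 ratio of ΔZF1 to WT turned from 0.73 to -0.25 without scaling. Keeping the direction did not mean staying past the limit, as the log2 ratio of ΔZF1 to WT of Mirg in ESCs was 1.08 with scaling and 0.10 without.

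Over sites of 1 noncoding gene only, small RNAs made up 17.2%, 17.4%, 11.2%, 19.9%, 14.3% and 12.7%, and long noncoding RNAs 45.9% in ESC WT and 48.5% in NPC WT. Outside coding genes small RNAs made up 17.8%, 18.6%, 12.1% and 20.3% in the first 4 lists, and long noncoding RNAs 55.9%, 58.1%, 67.6%, 57.1%, 63.6% and 71.0%. The share of ΔZF1 sites at a WT site was 31.02% and 19.97% at 0 nt and 67.4% and 47.4% within 50 nt in ESCs and NPCs, that of NPC WT at ESC WT 30.8% and 64.5%, that of ESC WT at noXL 6.11% and 34.5%, and that of NPC WT at noXL 6.49% and 29.4%. The causes were not tested.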
